A study of Mus musculus with 16 samples.

Results

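Fis1 and Inpp5f are 2 of the 55266 mouse genes covered by the transcript tables of this study. They were chosen because 1 transcript of each was higher in Upf3b-KO than in Ctrl mice in both brain regions examined, so the difference between the genotypes is what chose them and is given here as a description with no test. The tables held 6 transcripts of Fis1 and 9 of Inpp5f, 15 of 142435 in all. RNA was measured in frontal cortex (FC) and cerebellum (Cere) of adult mice without Upf3b (Upf3b-KO) and of littermates with it (Ctrl), with 4 libraries for each region and genotype. The study asked which RNAs depend on UPF3B in each region. The study's text speaks of 4 mice per genotype, but the labels tie no library to an animal, so the p-values below measure the spread between these libraries, which may in part be technical. The sex and exact age of the mice and the making of the allele were not stated in the labels.

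The product of Upf3b acts in nonsense-mediated RNA decay (NMD), where it links the exon junction complex to UPF2 and so helps the cell to degrade RNAs whose translation stops upstream of an exon junction. FIS1 is an adaptor in the outer membrane of mitochondria and peroxisomes and takes part in their division. INPP5F, also called SAC2, is a phosphatase with a Sac domain that removes a phosphate from phosphoinositides on endocytic membranes. In the mouse brain the Inpp5f locus is also known for a shorter, imprinted variant that is made from the paternal copy and starts at an internal promoter. Which annotated transcript that variant corresponds to was not given in the sources used here.

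Upf3b itself was at 14.8 ± 0.64 CPM in Ctrl and 0.559 ± 0.26 CPM in Upf3b-KO frontal cortex (SD, n = 4 each), and at 22.7 ± 1.2 (n = 4) and 0.737 ± 0.20 CPM (n = 3) in cerebellum, as the labels state. CPM is the count divided by the total count of its library, the usual scaling for depth. The fitted log2 changes below use TMM factors instead of the total and can differ slightly from the ratio of mean CPM. The libraries held 27660078 to 35238677 counts, except for Upf3b-KO library 1 of the cerebellum with 64981, in which 3 counts are already 46.2 CPM. That library was left out, and n is 3 for Upf3b-KO cerebellum. Libraries of a group were close to each other, with a common biological coefficient of variation of 3.51% to 4.08% over genes. Cerebellar markers were low in frontal cortex (a sum of 23.4 to 25.8 CPM in Ctrl, against 6580 to 6640 CPM in Ctrl cerebellum), as the tissue labels state.

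The genotypes also differed in markers of other tissue. The summed level of 6 choroid plexus markers (Ttr, Kl, Clic6, Folr1, Kcnj13 and Otx2) was 20.4 to 21.6 CPM in Ctrl and 2150 to 2200 CPM in Upf3b-KO frontal cortex, and 31.3 to 35.6 against 1370 to 1390 CPM in cerebellum, with 6 of 6 higher in Upf3b-KO in each region. All 6 markers of striatal medium spiny neurons were higher in Upf3b-KO frontal cortex (summed level 451 to 461 against 78.2 to 86.3 CPM), and 4 of 6 in cerebellum (192 to 200 against 127 to 136 CPM). Of the 6 frontal cortex markers, 1 was higher and 4 were lower in Upf3b-KO frontal cortex (1440 to 1450 against 1540 to 1610 CPM). In cerebellum, 6 of 6 markers of cerebellar nuclei or brainstem neurons were higher in Upf3b-KO (406 to 413 against 44.3 to 47.2 CPM) and 6 of 6 cerebellar markers were lower (2860 to 2880 against 6580 to 6640 CPM). These counts are at an adjusted p under 0.05 by edgeR's quasi-likelihood test, which 28% of all genes passed upwards and 25.3% downwards in frontal cortex, and 33.1% and 31.3% in cerebellum. None of the choroid plexus markers was at 0 in the Ctrl groups. The part of these differences in the values of Fis1 and Inpp5f was not tested. In bulk tissue, a change in the number of cells of a type and a change of RNA per cell cannot be told apart.

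The main transcripts of both genes differed in where they start. Fis1-201 (ENSMUST00000019198, chr5:136990931-136995088, plus strand, GRCm39) and Fis1-202 (ENSMUST00000111094, chr5:136982101-136995088) have 5 exons each, of which 4 are identical. Fis1-202 starts 8.83 kb upstream of Fis1-201, and its first exon of 344 bases lies outside the shorter gene model. Both reading frames end at the same stop codon and share 411 coding bases in the same frame. Fis1-201 codes for 152 amino acids and Fis1-202 for 145, because the coding bases of the first exon differ. These bases are shown, with the start codon in capitals, since they are the part of the message in which the proteins differ.

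Fis1-201, chr5:136991038-136991082: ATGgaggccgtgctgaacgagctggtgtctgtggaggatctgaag
Fis1-202, chr5:136982421-136982444: ATGcccagagacgaagctgcaagg

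The leader before the start codon was 107 bases long with 2 ATG triplets in Fis1-201, and 320 bases long with 8 in Fis1-202. Of 166641 protein-coding transcripts with a complete coding end, 69.2% had at least 1 ATG in the leader, with a median of 1.

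For Inpp5f, the long form Inpp5f-201 (ENSMUST00000043138, chr7:128213013-128298696, plus strand) has 20 exons and codes for 1132 amino acids. Inpp5f-208 (ENSMUST00000151237, chr7:128289270-128298696) starts 76.3 kb downstream of it and Inpp5f-203 (ENSMUST00000118605, chr7:128290213-128298696) a further 0.943 kb downstream. Each short form has 6 exons, of which the last 5 are identical to exons of Inpp5f-201. The short forms code for 441 (Inpp5f-208) and 505 (Inpp5f-203) amino acids, end at the stop codon of the long form and keep its frame. All 1323 coding bases of Inpp5f-208 lie within those of the long form, and Inpp5f-203 has 5 coding bases of its own. The 30 coding bases from each start codon are shown to make the difference visible, with the start codon in capitals.

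Inpp5f-203, spliced, from chr7:128290966: ATGcacctcactgacgctgcgcacagagat
Inpp5f-208, from chr7:128294019: ATGcggctgcactacaggtgtaaagaagca

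Inpp5f-203 had a leader of 753 bases with 19 ATG triplets, Inpp5f-208 one of 249 bases with 4, and Inpp5f-201 one of 306 bases with 1. Another main transcript, Inpp5f-206 (ENSMUST00000142075), is annotated as a retained intron and has no coding sequence.

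**Figure D1:**
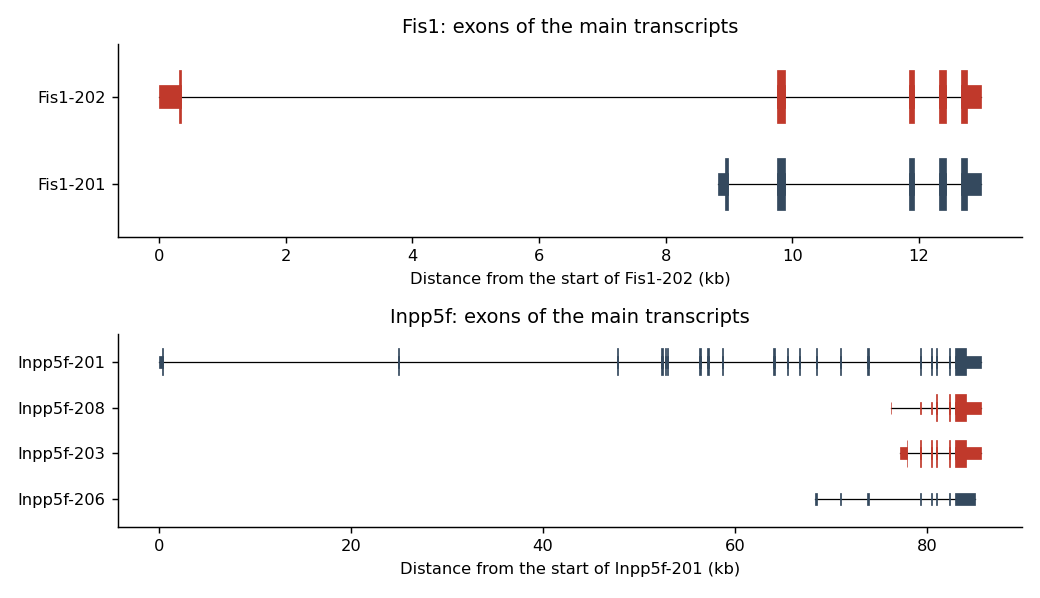
Exons of the main transcripts of Fis1 (top) and Inpp5f (bottom), drawn to scale against the distance in kb from the start of the longest form; tall boxes are coding, low boxes are not, and red marks the forms with the higher share in Upf3b-KO. Fis1-202 starts 8.83 kb before Fis1-201, whereas Inpp5f-208 and Inpp5f-203 start 76.3 and 77.2 kb inside Inpp5f.

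A downstream exon junction (dEJ), a junction that follows the stop codon and marks candidate NMD targets, was absent from the annotation of Fis1-201, Fis1-202, Inpp5f-201, Inpp5f-203 and Inpp5f-208, whose last junction precedes the stop codon. The annotation used here lists 13 transcripts of Fis1 and 23 of Inpp5f, of which 5 and 11 have the transcript type for nonsense-mediated decay. Of those, 0 of Fis1 and 1 of Inpp5f (Inpp5f-209) were in the tables, and Inpp5f-209, which starts at the same base as Inpp5f-203, reached at most 0.0301 CPM. Reads from the other annotated decay forms could be counted only under the transcripts that the tables hold.

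The 200 bases just before each alternative start are shown because the transcripts that were higher in Upf3b-KO are told from the long forms by these starts. They are from the plus strand of GRCm39, with CG pairs in capitals.

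Fis1-202, chr5:136981901-136982100: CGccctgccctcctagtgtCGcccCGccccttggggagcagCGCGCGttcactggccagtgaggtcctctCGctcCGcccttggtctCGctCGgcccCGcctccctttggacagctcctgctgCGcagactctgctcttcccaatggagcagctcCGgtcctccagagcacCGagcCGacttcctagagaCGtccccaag
Inpp5f-203, chr7:128290013-128290212: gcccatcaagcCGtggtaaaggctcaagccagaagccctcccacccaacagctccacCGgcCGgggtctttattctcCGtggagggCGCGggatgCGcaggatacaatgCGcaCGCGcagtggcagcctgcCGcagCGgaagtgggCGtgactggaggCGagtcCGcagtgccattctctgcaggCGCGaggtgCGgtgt
Inpp5f-208, chr7:128289070-128289269: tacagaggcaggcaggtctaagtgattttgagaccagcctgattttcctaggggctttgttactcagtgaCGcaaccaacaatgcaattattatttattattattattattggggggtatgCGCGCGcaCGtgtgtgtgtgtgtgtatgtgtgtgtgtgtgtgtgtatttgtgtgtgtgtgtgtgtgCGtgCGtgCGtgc

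The stretch before Fis1-202 held 16 CG pairs, that before Inpp5f-203 held 18, and that before Inpp5f-208 held 8. Over the window from 250 bases before to 50 after the start, the count was 19 for Fis1-202, 28 for Inpp5f-203 and 15 for Inpp5f-208, compared with 8 for Fis1-201 and 13 for Inpp5f-201. The median over 67321 start windows of protein-coding transcripts was 10. Searched on both strands, the letters TATAAA (in 11% of all windows) were in none of these 5 windows. GGGCGG (in 40.9%) occurred 2 times for Fis1-202, 3 times each for Fis1-201 and Inpp5f-201, and not for the short Inpp5f forms. CCAAT (in 35.8%) occurred 1 time each for Fis1-202 and Inpp5f-208.

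Fis1-202 was higher in Upf3b-KO in both regions, while Fis1-201 was not. In frontal cortex, Fis1-202 was at 32.1, 36.1, 36.4 and 38.7 CPM in the Ctrl libraries and at 99.1, 92.7, 106 and 99.7 CPM in Upf3b-KO. The cerebellar libraries had 17.3, 15.4, 16.8 and 16.6 CPM in Ctrl and at 82.3, 80.4 and 89.3 CPM in Upf3b-KO. The groups did not overlap in either region, and the Upf3b-KO mean was 2.77 times the Ctrl mean in frontal cortex and 5.09 times in cerebellum. The fitted log2 change was 1.41 (SE 0.061) and 2.34 (SE 0.057). Separation of the genotypes, here and below, belongs to the comparison that chose the genes. The share of all transcripts without overlap is not given, so nothing is read from it. Among all transcripts tested, 2.76% in frontal cortex and 3.45% in cerebellum were called higher in Upf3b-KO (adjusted p under 0.01 and fold over 2), and nothing is read from this for transcripts that were chosen by the same comparison. The Upf3b-KO minus Ctrl difference in mean level was 63.4 CPM in frontal cortex and 67.5 CPM in cerebellum, so that the difference in fold went with a lower Ctrl level in cerebellum. The interaction was not tested for these transcripts.

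Fis1-201, the form with the longer protein, was at 58.8, 56.7, 56.5 and 53.9 CPM in Ctrl and 49.8, 60.2, 52.2 and 51.8 CPM in Upf3b-KO frontal cortex. The cerebellar libraries had 75.0, 78.4, 75.6 and 77.4 CPM in Ctrl and 68.9, 80.8 and 69.8 CPM in Upf3b-KO. The genotypes overlapped in both regions. The gene total of Fis1 was 93.4 ± 1.4 CPM in Ctrl and 155 ± 3.8 CPM in Upf3b-KO frontal cortex, and 94.4 ± 0.59 and 159 ± 5.4 CPM in cerebellum. The higher level of Fis1-202 equalled 104% of the difference of the gene total in each region.

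Both short forms of Inpp5f were higher in Upf3b-KO, and the long form differed less. Inpp5f-203 was at 20.2, 16.2, 16.9 and 21.6 CPM in Ctrl and 79.9, 72.4, 73.1 and 78.4 CPM in Upf3b-KO frontal cortex. The cerebellar libraries had 30.7, 28.7, 36.0 and 27.5 CPM in Ctrl and 138, 141 and 146 CPM in Upf3b-KO. The Upf3b-KO mean was 4.05 and 4.62 times the Ctrl mean, with a fitted log2 change of 1.95 (SE 0.096) in frontal cortex and 2.20 (SE 0.091) in cerebellum, and the groups did not overlap.

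Inpp5f-208, the most abundant form, had the same pattern, although 1 transcript of the gene was enough for the choice. It was at 37.7, 45.1, 50.8 and 45.8 CPM in Ctrl and 148, 158, 144 and 145 CPM in Upf3b-KO frontal cortex. The cerebellar libraries had 79.5, 75.0, 71.8 and 69.3 CPM in Ctrl and 253, 237 and 256 CPM in Upf3b-KO. All Upf3b-KO libraries lay above all Ctrl libraries of their region, and the ratios of the means were 3.32 and 3.36 (log2 change 1.67, SE 0.085, and 1.75, SE 0.051). Of the 265 transcripts called higher in Upf3b-KO in both regions, out of 38042 tested in both, Fis1-202 stood at place 14, Inpp5f-203 at 21 and Inpp5f-208 at 25 by the larger of the adjusted p-values. These places come from the comparison that chose the genes and support nothing. Just inside the fold limit were Scn4b-201 (log2 changes of 2.556 and 1.008) and Dclk3-201 (1.011 and 2.642), and just outside Clgn-201 (0.996 and 1.652) and Mobp-201 (0.997 and 1.755).

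Inpp5f-201 was at 32.2, 38.7, 36.5 and 38.2 CPM in Ctrl and 35.6, 42.0, 49.1 and 45.5 CPM in Upf3b-KO frontal cortex, where the genotypes overlapped. The cerebellar libraries had 60, 60.5, 59.4 and 62.9 CPM in Ctrl and 75.8, 74.7 and 74.9 CPM in Upf3b-KO, without overlap and with a ratio of 1.24. The gene total of Inpp5f was 107 ± 1.7 CPM in Ctrl and 274 ± 4.1 CPM in Upf3b-KO frontal cortex, and 176 ± 3.2 and 477 ± 5.6 CPM in cerebellum. The short forms together made up 96.5% of the difference in frontal cortex and 94.7% in cerebellum.

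Inpp5f-206 varied widely between libraries of a group for its level. It was at 16.6, 5.06, 0.00087 and 2.36 CPM in Ctrl and 5.45, 5.01, 3.42 and 7.07 CPM in Upf3b-KO frontal cortex. The cerebellar libraries had 3.02, 12.6, 10.9 and 12.1 CPM in Ctrl and 12.2, 18.1 and 4.05 CPM in Upf3b-KO. The genotypes overlapped in both regions. It lies between the long and short forms in position and shares exons with both.

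**Figure D2:**
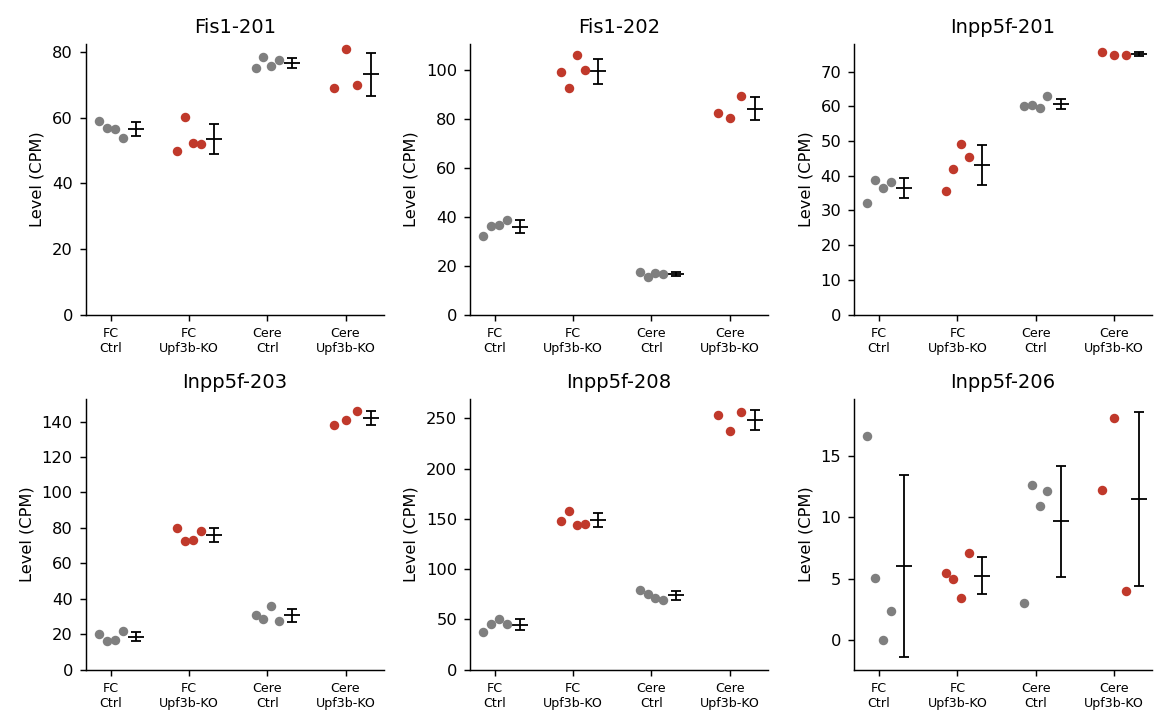
Level in CPM (vertical axes, linear, from 0 apart from the last panel, where an error bar reaches below 0) of the 6 main transcripts in each library, grouped by region and genotype; points are libraries and bars show the mean and SD (n = 4, and n = 3 for Cere Upf3b-KO). Fis1-202, Inpp5f-203 and Inpp5f-208 have no overlap between Ctrl (grey) and Upf3b-KO (red) in either region, and Fis1-201 overlaps in both. The genes were chosen by this comparison, and the share of all transcripts without overlap is not given.

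The remaining 9 transcripts were minor. The other 4 of Fis1 reached at most 1.37 CPM in any deep library and a mean share of at most 0.76% of the gene, and the other 5 of Inpp5f at most 0.753 CPM and 0.297%. Fis1-203 uses the same first exon as Fis1-202 and was at 0.714 ± 0.47 CPM in Ctrl and 0.868 ± 0.31 CPM in Upf3b-KO frontal cortex.

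Expressed as a share of the counts of the gene, the larger share of Fis1 lay with Fis1-201 in every Ctrl library, and with Fis1-202 in all 4 Upf3b-KO libraries of the frontal cortex and 2 of 3 of the cerebellum. In the remaining one, library 3, Fis1-202 held 49.5% and Fis1-201 49.8%. Fis1-202 held 38.3% ± 2.4 of Fis1 in Ctrl and 64.2% ± 2.8 in Upf3b-KO frontal cortex (SD, n = 4 each), a difference of 25.9 percentage points. In cerebellum it held 17.5% ± 0.93 in Ctrl (n = 4) and 52.8% ± 3.0 in Upf3b-KO (n = 3), a difference of 35.3 points. Fis1-201 went from 60.5% ± 3.0 to 34.6% ± 3.0 and from 81.1% ± 1.4 to 46.0% ± 3.4. Per transcript length, Fis1-202 held 33.3% and 59.0% of Fis1 in frontal cortex, and 14.5% and 47.4% in cerebellum, where Fis1-201 held 51.3% in Upf3b-KO. On that scale Fis1-201 had the larger share in 2 of the 3 cerebellar Upf3b-KO libraries, and in library 4 it held 48.3% against 49.7% for Fis1-202.

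The shares of Inpp5f were alike in the regions. Inpp5f-203 held 17.6% ± 2.2 in Ctrl and 27.8% ± 1.5 in Upf3b-KO frontal cortex, and 17.5% ± 1.9 and 29.7% ± 0.80 in cerebellum. Inpp5f-208 held 42.1% ± 5.6 and 54.4% ± 2.0 in frontal cortex, and 42.1% ± 2.7 and 52.0% ± 1.5 in cerebellum. Together the short forms went from 59.7% ± 5.0 to 82.1% ± 1.9 and from 59.5% ± 3.1 to 81.8% ± 1.7, and the long form from 34.2% ± 3.0 to 15.7% ± 2.1 and from 34.6% ± 1.4 to 15.7% ± 0.16. Within the pair of short forms, Inpp5f-203 made up 29.6% ± 4.7 in Ctrl and 33.8% ± 1.7 in Upf3b-KO frontal cortex, with overlap, and 29.3% ± 2.7 and 36.4% ± 0.94 in cerebellum, without. The split between the short forms rests on reads from their first exons, which are 758 bases long in Inpp5f-203 and 62 in Inpp5f-208, since their other exons are identical.

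Such shifts were uncommon in size. Among 58491 transcripts of 8391 genes with at least 10 CPM in each group, the median size of the difference in share was 0.194 points in frontal cortex and 0.222 in cerebellum. A share at least as much higher in Upf3b-KO in both regions was found for 15 transcripts (0.0256%) at the size of Fis1-202, for 149 (0.255%) at that of Inpp5f-203 and for 157 (0.268%) at that of Inpp5f-208, each including itself. These places follow from how the genes were chosen and are a description.

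**Figure D3:**
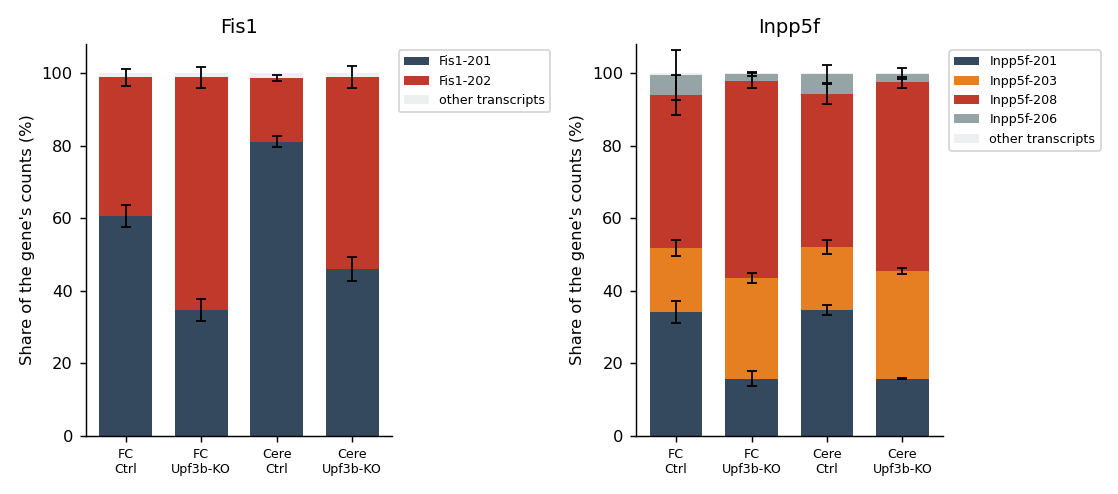
Share of the counts of Fis1 (left) and Inpp5f (right) held by each main transcript (vertical axis, %), stacked as means per region and genotype, with the SD of each share as an error bar (n = 4, and n = 3 for Cere Upf3b-KO). Fis1-202 has a share of 38.3% in Ctrl and 64.2% in Upf3b-KO frontal cortex, against 17.5% and 52.8% in cerebellum, and the long form Inpp5f-201 has a share of 15.7% in Upf3b-KO of both regions.

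The comparison of the regions within a genotype was not used to choose the genes and could be tested. Both regions came from the same mice by the study's text, but the labels do not say which libraries share a mouse, and the fit treats them as separate. Of the 15 transcripts, 9 had enough counts for the test in Ctrl libraries. By p alone (adjusted p under 0.01, whatever the fold), 4 were higher and 1 lower in Ctrl cerebellum than in Ctrl frontal cortex, against 12.7% and 15.6% of all transcripts tested. Fis1-202 was the one that was lower, at 16.5 against 35.8 CPM (log2 difference -1.23, SE 0.068, adjusted p 1.99e-06 by edgeR's quasi-likelihood test). It was also the only one of the 9 past a fold of 2, which 14.9% of all transcripts passed together with the p limit. Fis1-201 had the opposite direction, at 76.6 against 56.5 CPM (log2 difference 0.32, SE 0.033, edgeR adjusted p 9.24e-05). The forms of Inpp5f were higher in cerebellum by much the same amount, with log2 differences of 0.62 (SE 0.057) for Inpp5f-201, 0.60 (SE 0.12) for Inpp5f-203 and 0.60 (SE 0.087) for Inpp5f-208 and edgeR adjusted p-values of 4.79e-05, 0.00504 and 0.000723. For Inpp5f-203 that p lay at 0.0102 to 0.0173 without Ctrl library 1, 2 or 3 of either region, which left the direction as it was. With the replicate number as a block, the edgeR adjusted p was 0.0290 for Inpp5f-203 and 0.0114 for Inpp5f-208. Inpp5f-206 had a log2 difference of 0.57 (SE 1.2, edgeR adjusted p 0.758).

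In Upf3b-KO, 9 transcripts were tested as well, and again 4 were higher and 1 lower in cerebellum at that p, against 8.78% and 11% of all transcripts. None of the 9 passed both that p and a fold of 2, as 10.1% of all transcripts did. Inpp5f-206 (log2 difference 1.09, SE 0.48) and the minor Fis1-206 (-1.11, SE 1.2) were past that fold with edgeR adjusted p-values of 0.149 and 0.581. Fis1-202 was lower in cerebellum, at 84.0 against 99.3 CPM, with a log2 difference of -0.29 (SE 0.054, edgeR adjusted p 0.00663), and Fis1-201 higher with 0.41 (SE 0.083, edgeR adjusted p 0.00927). Inpp5f-201, Inpp5f-203 and Inpp5f-208 were higher by 0.76 (SE 0.10), 0.86 (SE 0.044) and 0.70 (SE 0.042) on the log2 scale, with edgeR adjusted p-values of 0.00117, 8.65e-06 and 2.04e-05. Both Fis1 transcripts passed by p alone, and this was lost without some single libraries. Without Upf3b-KO library 1, 3 or 4 of the frontal cortex or 2 or 3 of the cerebellum, the edgeR adjusted p of Fis1-202 was 0.0130 to 0.0311. That of Fis1-201 was 0.0182 to 0.0297 without any 1 of these or without cerebellar library 4. With the replicate number as a block, the values were 0.0552 for Fis1-202 and 0.0888 for Fis1-201 (edgeR adjusted p). With the shallow library kept, they were 0.0644 and 0.358. The order of the regions was the same in both genotypes for each of these 5 transcripts. Fis1-202 differed between the regions by -1.23 in Ctrl and -0.29 in Upf3b-KO, and whether these differ was not tested, since that difference uses the comparison that chose the gene.

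Per transcript length, as TPM computed from the counts and annotated lengths, the level of Fis1 was 266 ± 2.7 in Ctrl and 416 ± 9.1 in Upf3b-KO frontal cortex, and 294 ± 1.5 and 440 ± 16 in cerebellum. Inpp5f was lower on this scale, at 67.8 ± 3.0 and 184 ± 3.2 TPM in frontal cortex and 116 ± 3.4 and 319 ± 3.7 TPM in cerebellum.

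Other annotated genes overlap both loci. The antisense RNA Gm73353 shares 260 exonic bases with Fis1 but is not in the tables, so any reads from it could count for Fis1 if the strand was not used, which was not stated. Mcmbp, on the opposite strand, shares 1642 bases with the last exon of Inpp5f. Mcmbp was at 19.1 ± 1.1 CPM in Ctrl and 19.5 ± 1.0 CPM in Upf3b-KO frontal cortex (log2 change -0.04, SE 0.059, edgeR adjusted p 0.557) and fell in cerebellum from 27.2 ± 1.0 to 22.9 ± 0.64 CPM (log2 change -0.30, SE 0.051, edgeR adjusted p 5.54e-05). The pseudogene Gm43580 lies within the first exon of Inpp5f-203 over 284 bases and had a mean of at most 0.0683 CPM in any group.

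The genes next to Fis1 and Inpp5f did not share their pattern in frontal cortex. Of the 4 nearest tested protein-coding genes on each side of Fis1, 2 rose and 2 fell in Upf3b-KO frontal cortex, with log2 changes of -0.17 to 0.24, at an adjusted p under 0.05 by edgeR, a limit that 28% of all genes passed upwards and 25.3% downwards. In cerebellum 4 rose and 1 fell among the neighbours of Fis1, against 33.1% and 31.3% of all genes. The range was from -0.64 for Cux1, a transcription factor, to 2.51 for Vgf, a secreted neuropeptide precursor, which was at 16.1 ± 0.18 CPM in Ctrl and 94.7 ± 3.9 CPM in Upf3b-KO cerebellum (edgeR adjusted p 6.50e-20) and at 143 CPM in both genotypes in frontal cortex (log2 change -0.08, SE 0.021). The nearest gene on each side of Fis1 rose in cerebellum, Ift22, of intraflagellar transport, by a log2 change of 0.47 (SE 0.038) and Znhit1 by 0.38 (SE 0.061).

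Around Inpp5f, 2 of 8 neighbours rose and 0 fell in frontal cortex (log2 changes of -0.27 to 0.17), and 3 rose and 2 fell in cerebellum (-0.30 to 1.03), against the same shares of all genes. The nearest gene upstream, Bag3, a co-chaperone, had log2 changes of 0.17 (SE 0.091, edgeR adjusted p 0.130) in frontal cortex and 0.33 (SE 0.053, edgeR adjusted p 2.75e-05) in cerebellum. In frontal cortex no neighbour had a log2 change above 0.24, compared with 0.65 for the gene total of Fis1 and 1.28 for that of Inpp5f.

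**Figure D4:**
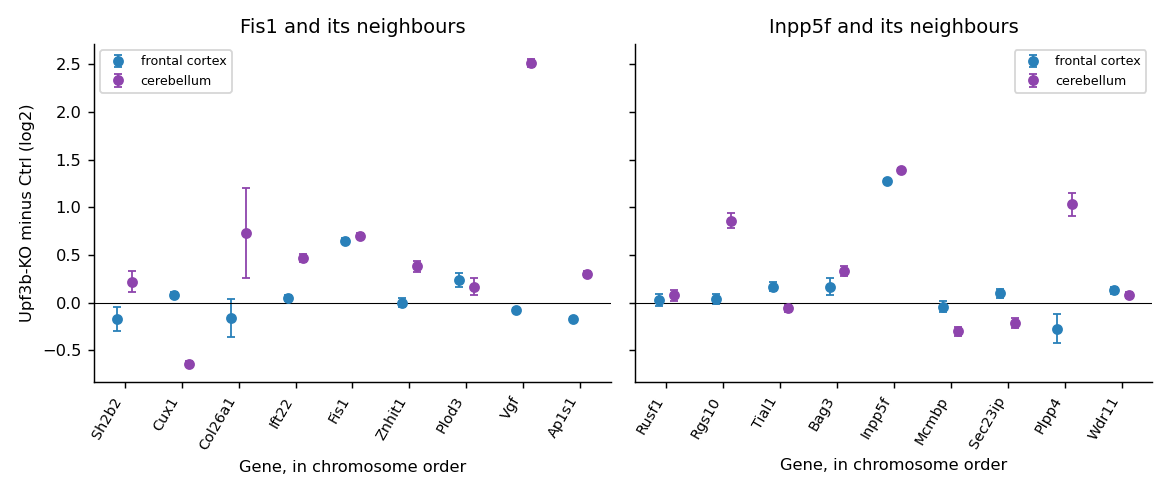
Upf3b-KO minus Ctrl log2 change of gene totals (vertical axis, with SE as error bars) for Fis1 and Inpp5f and the 4 nearest tested protein-coding genes on each side, in chromosome order along the horizontal axis. In frontal cortex the neighbours lie between -0.27 and 0.24, and in cerebellum Vgf (2.51) lies above Fis1 (0.70) and no neighbour of Inpp5f reaches its value of 1.39.

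Partner genes of Fis1 in mitochondrial and peroxisomal division and fusion were called in both directions, as many of all genes were. Of 25 listed genes, 24 were tested in each region. In frontal cortex 8 rose and 10 fell at an adjusted p under 0.05 (edgeR), with a median log2 change of -0.02 against 0.00 over all genes. Of all genes, 28% rose and 25.3% fell under this limit. In cerebellum 10 rose and 8 fell, with a median of 0.04 against 0.01, where 33.1% of all genes rose and 31.3% fell. Mtfr1, a mitochondrial fission regulator, rose from 13.8 ± 0.68 to 27.4 ± 1.3 CPM in frontal cortex (log2 change 0.91, SE 0.057), and its cerebellar level rose from 28.6 ± 0.77 to 43.1 ± 2.3 CPM (0.54, SE 0.046). Inf2, a formin that assembles actin at sites of division, rose in frontal cortex from 9.04 ± 0.89 to 18.4 ± 1.2 CPM, a log2 change of 0.95 (SE 0.078).

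The core genes of division and fusion changed by small amounts. Mff, a receptor for the division GTPase DRP1, fell by 0.21 on the log2 scale in frontal cortex (SE 0.017) and by 0.11 in cerebellum (SE 0.018). Dnm1l, which encodes DRP1, fell by 0.14 in frontal cortex (SE 0.018), and its log2 change in cerebellum was 0.04 (SE 0.018, edgeR adjusted p 0.0341). The fusion GTPase gene Mfn2 fell in both regions, from 309 ± 4.0 to 267 ± 7.8 CPM and from 287 ± 5.8 to 269 ± 3.5 CPM, and its relative Mfn1 rose by a log2 change of 0.20 (SE 0.028) in frontal cortex. In cerebellum, the fusion factor Miga1 (0.36, SE 0.024) and Gdap1, an outer membrane protein mutated in a hereditary neuropathy (0.25, SE 0.021), rose on the log2 scale, and Tbc1d15, which binds FIS1, fell by 0.26 (SE 0.034).

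Genes of phosphoinositide turnover were also called in both directions. All 32 listed genes were tested in each region. In frontal cortex 10 rose and 9 fell, with a median log2 change of 0.02, and in cerebellum 9 rose and 14 fell, with a median of -0.07 (edgeR, adjusted p under 0.05). These counts stand beside the same 28% and 25.3% of all genes in frontal cortex and 33.1% and 31.3% in cerebellum. Synj1, which encodes a synaptic phosphatase with a Sac domain like that of INPP5F, fell by 0.38 in frontal cortex (SE 0.015) and rose by 0.17 in cerebellum (SE 0.018) on the log2 scale.

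The other named genes of this list changed by different amounts. In frontal cortex the kinase gene Pi4ka (0.18, SE 0.019) and the phosphatase genes Inpp5k (0.40, SE 0.043) and Inpp5j (0.30, SE 0.036) rose on the log2 scale, and Pi4k2a fell by 0.27 (SE 0.035). In cerebellum Synj2 (0.74, SE 0.052) and the myotubularin gene Mtmr2 (0.36, SE 0.029) rose. Inpp5a, which encodes a phosphatase of inositol trisphosphate, fell in cerebellum from 570 ± 9.3 to 276 ± 3.4 CPM (log2 change -1.09, SE 0.017), and the kinase gene Pip5k1c fell by 0.67 (SE 0.019). These cerebellar changes stand beside the lower cerebellar markers given above. Under the rule used for transcripts, which adds a 2-fold limit, none of the listed genes was called in frontal cortex and 2 in cerebellum, Inpp5a and the mitochondrial lipase gene Pld6, which was named after its values were seen (0.183 ± 0.064 to 1.03 ± 0.22 CPM, log2 change 2.43).

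Over the 15 deep libraries, the transcripts whose pattern was most like that of Fis1-202 differed from those most like Inpp5f-203. Likeness was Pearson's r of log2(CPM + 1) over these libraries, which form 4 groups and so carry mainly the group means. Among 17720 transcripts of other genes whose mean was 5 CPM or more, those most like Fis1-202 were Gm15631-201 (r = 0.993), Tinagl1-203 (0.993), Igfbp2-201 (0.992), Kl-201 (0.990) and Sostdc1-201 (0.988). Kl, the gene of the klotho protein, is among the 6 choroid plexus markers, and Kl-201 was at 7.71 and 165 CPM in Ctrl and Upf3b-KO frontal cortex and at 1.01 and 76.8 CPM in cerebellum. Igfbp2-201, of an insulin-like growth factor binding protein, was at 20.8, 69.7, 9.51 and 63.7 CPM in the same order. All 5 shared with Fis1-202 a lower level in Ctrl cerebellum than in Ctrl frontal cortex, which follows from picking them by r. The choroid plexus markers did not all have that order at gene level. Ttr, Kl and Folr1 were lower in Ctrl cerebellum than in Ctrl frontal cortex. Clic6 (20.4 against 1.26 CPM) and Otx2 (6.56 against 0.0384 CPM) were higher, and Kcnj13 was at 3.44 against 3.33 CPM. The part of choroid plexus RNA in the level of Fis1-202 was not tested.

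Those most like Inpp5f-203 were Ark2n-201 (r = 0.992), Srsf2-203 (0.987), 2610005L07Rik-202 (0.986), Snrpa1-201 (0.985) and Plxnb3-201 (0.985). Srsf2-203, of a gene for a splicing factor, is annotated as a retained intron and was at 2.39 and 8.27 CPM in Ctrl and Upf3b-KO frontal cortex and at 4.10 and 13.8 CPM in cerebellum. Snrpa1-201, of a gene for a spliceosome protein, has the annotated type for nonsense-mediated decay and was at 7.51, 18.5, 10 and 31.1 CPM in the same order. Ark2n-201 was at 6.68, 37.4, 11.7 and 64.0 CPM. All 5 were lowest in Ctrl frontal cortex and highest in Upf3b-KO cerebellum, as Inpp5f-203 was, which follows from picking them by r.

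Among the members themselves, r with Inpp5f-203 was 0.984 for Inpp5f-208, 0.566 for Inpp5f-201 and 0.741 for Fis1-202, and r between Fis1-202 and Fis1-201 was -0.525. These values follow in part from the choice of the genes, share the same libraries and are a description.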

How the data were processed

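Bulk RNA-seq of 16 libraries was analysed. After ribosomal RNA depletion, the authors prepared libraries (SMART-Seq kit), aligned read pairs to GRCm39 (Ensembl 105) with STAR 2.5.2b and estimated transcripts with RSEM. The submitters' notes also name Subread, featureCounts and DESeq2. The deposited values are expected counts per transcript, not scaled for depth or length. Reads that fit several transcripts were divided by the model, so forms that share exons depend on each other. Strand use was not stated.

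Symbols, exons and coordinates came from GENCODE vM39 (141102 of 142435 transcripts matched), a later release than the authors used, and sequences from GRCm39. Expected counts were rounded, filtered (filterByExpr, minimum count 10, minimum total 15), scaled by TMM and tested with edgeR 4.0.16 (R 4.3.3, limma 3.58.1), quasi-likelihood F test, Benjamini-Hochberg over all features. The SE is the log2 change divided by the square root of F. Gene totals are sums of matched transcripts. Transcripts were called when they passed both 0.01 (adjusted p) and a 2-fold limit, listed genes at 0.05. Simulated counts with 200 changed features were all recovered in each of the 6 comparisons, with 0 or 1 false calls.

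Upf3b-KO library 1 of the cerebellum was left out. Its intervals are exact binomial (95%), and its floor of 3 counts covers counting error only. Transcripts with a mean share of at least 5% in a group are given in full. Of each list and region the 3 genes with the smallest adjusted p in each direction are named, and 4 neighbours on each side. The values of 1 gene that this rule names are not reported here. The members and lists were chosen with earlier results of these data known. Marker lists hold 6 genes each. The alternatives were DESeq2 1.42.0, median-of-ratios scaling, no filter, the replicate number as a block, other limits and leaving out each library. Same-numbered libraries did not deviate together (correlations of -0.017 to 0.075).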

Additional observations from a re-analysis of the deposited data

Results flagged for a closer look

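The shallow Upf3b-KO library 1 of the cerebellum was left out of every main comparison. Several transcripts were higher in it than in any Ctrl cerebellar library, also at the lower end of a binomial interval. Inpp5f-201, at 78.0 CPM (exact 95% interval 25.0 to 180, highest Ctrl 62.9), was not among them. Fis1-202 was at 215 CPM from 14 counts (exact 95% interval 118 to 361 CPM, highest Ctrl 17.3), and as Fis1-201 had 0 of 64981 counts, the gene total of Fis1 was also 215 CPM (highest Ctrl 94.9). The exact 95% interval for that count of 0 reaches up to 56.8 CPM, whereas Fis1-201 was at 68.9 to 80.8 CPM in the other Upf3b-KO libraries. These intervals treat estimated counts as reads and leave out the error in dividing reads between forms. The genes were chosen for their difference from the same Ctrl libraries, so the values are a description. Inpp5f-203 was at 229 CPM (129 to 381, highest Ctrl 36.0), Inpp5f-208 at 211 CPM (118 to 361, highest Ctrl 79.5), Inpp5f-206 at 81.4 CPM (25.0 to 180, highest Ctrl 12.6) and the gene total of Inpp5f at 600 CPM (427 to 820, highest Ctrl 179).

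A library far from the other 3 of its group was found in 7 of 147 groups examined, where chance at 1 in 20 gives 7.35. In Upf3b-KO frontal cortex, Fis1-202 held 60.1% of Fis1 in library 2 against 65.1% to 66.0% in the others. The other cases were gene levels, namely Cux1 (84.7 CPM) and Wdr11 (60.3 CPM) in Upf3b-KO library 3, Pi4k2a (42.7 CPM) in Upf3b-KO library 1, Mfn2 (303 CPM) and Plpp4 (4.50 CPM) in Ctrl library 1, and Znhit1 (29.6 CPM) in Ctrl library 4, all of frontal cortex.

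For 10 of 35 named listed or neighbouring genes, every Upf3b-KO library lay on one side of every Ctrl library in CPM in frontal cortex and on the other side in cerebellum. The same held for 1905 of 16754 genes tested in both regions (11.4%), and most of the 35 were named for a small p in one of the regions. The difference between the regions was not tested. The log2 changes in frontal cortex and cerebellum were -0.17 and 0.30 for Ap1s1, 0.08 and -0.64 for Cux1, -0.14 and 0.04 for Dnm1l, 0.30 and -0.47 for Inpp5j, and 0.40 and -0.17 for Inpp5k. They were -0.27 and 0.16 for Pi4k2a, 0.03 and -0.67 for Pip5k1c, 0.10 and -0.21 for Sec23ip, -0.38 and 0.17 for Synj1, and 0.10 and -0.26 for Tbc1d15. Neither Fis1 nor Inpp5f was among them, and both were chosen for a transcript that was higher in both regions.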

How the results depend on the processing

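The direction of the region difference was kept for Fis1-201, Fis1-202, Inpp5f-201, Inpp5f-203 and Inpp5f-208 in both genotypes under all alternatives run. Fis1-202 differed between Ctrl regions by -1.285 to -1.19 (log2) when 1 library was left out. With a fold limit of 1.5, Inpp5f-201, Inpp5f-203 and Inpp5f-208 also passed in both genotypes. Fis1-203 (-0.841 to 0.068 in Ctrl, -0.882 to 0.189 in Upf3b-KO) and Inpp5f-204 (-0.449 to 0.526 in Ctrl) changed sign when 1 library was left out. Both had low counts, and neither was ever called.

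Counts of calls over all transcripts moved more. Between the Ctrl regions, 6219 transcripts were called, 11800 with no fold limit (chosen after seeing the data) and 5552 to 5662 without 1 library. Between the Upf3b-KO regions, 4637 were called, 9099 with no fold limit, 7488 with DESeq2 and 3680 to 3991 without 1 library. Between the genotypes, 1362 were called in frontal cortex (2755 with DESeq2, 927 to 1120 without 1 library). In cerebellum 2113 were called, with 3581 at a fold of 1.5, 4188 with DESeq2, 977 with the shallow library kept and 1354 to 1767 without 1 library. The causes were not tested. The labels do not say that a shared replicate number marks a shared mouse. With the replicate number as a block, the counts in this order were 3992, 1811, 460 and 553, and by p alone Inpp5f-203 (0.0290) and Inpp5f-208 (0.0114) in Ctrl and Fis1-201 (0.0888) and Fis1-202 (0.0552) in Upf3b-KO then lay above 0.01 in edgeR's adjusted p.

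Of the listed genes, 37 passed in frontal cortex and 41 in cerebellum. With the 2-fold limit at 0.01, 0 (0 of the mitochondrial and 0 of the phosphoinositide list) and 2 (1 and 1) did, and without 1 library 30 to 34 and 40 to 43. With the shallow library kept, the difference in share in cerebellum was 47.1 points for Fis1-202 (35.3 without it), 14.4 for Inpp5f-203 (12.3) and 5.75 for Inpp5f-208 (9.97). Without 1 deep library these differences were 34.2 to 37.0, 11.8 to 13.2 and 9.32 to 11.2 points, and 24.8 to 27.3, 9.48 to 11.0 and 9.83 to 14.4 in frontal cortex. Per transcript length they were 32.8, 10.5 and 8.6 points in cerebellum.

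The depth of the shallow library does not show a transcript under 46.2 CPM, while the deep libraries resolve 0.0851 to 0.108 CPM. The division of reads between forms that share exons was the authors' estimate and carries an error that these counts do not show.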
